A study of Caenorhabditis elegans with 2 samples.

Results

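The genes described here encode the protein subunits of the mitochondrial ribosome, the machine that translates the few messages of the mitochondrial genome. They were chosen by symbol alone: every protein-coding gene of the WBcel235 annotation whose name begins with mrpl- or mrps-. This gave 70 of 19973 nuclear protein-coding genes, 41 of the large subunit (mrpl-) and 29 of the small subunit (mrps-). The data are chromatin immunoprecipitation sequencing (ChIP-seq) maps of the transcription factor SKN-1 as an eGFP fusion in whole Caenorhabditis elegans. Both samples come from L3 larvae, labelled as pooled male and female, of strain OP342, which carries unc-119(ed3) and the insertion wgIs342. They are biological replicates 1 and 2 of 1 group, with no second condition. The tagged protein comes from a transgene of 1 strain, and whole larvae mix all tissues, so a peak does not say in which cells the factor was bound.

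SKN-1 is a relative of the mammalian Nrf factors and is known for switching on genes of oxidative stress defence and protein turnover. The mitochondrial ribosome is built from RNAs encoded in mitochondrial DNA and proteins encoded in the nucleus, which are made in the cytosol and imported. Many of its proteins are counterparts of bacterial ribosomal proteins and keep their numbers, while others are found in mitochondria only. In C. elegans, knockdown of mrps-5 is known to lengthen life and to induce the mitochondrial unfolded protein response.

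The values came from 4 deposited peak lists on the ce11 build. The IDR-thresholded list held 1778 peaks and equalled the 1778 strongest lines of the pooled list. IDR is the irreproducible discovery rate, which compares ranks between replicates. A peak in this list need not rank high in each replicate. Of the 1549 genes with a promoter peak in it, 54.2% also had one among the 1778 strongest lines of both replicates. The pooled and replicate 2 lists held 30000 lines each and the replicate 1 list 22350, background lines included. A gene was counted as bound when a summit, the highest point of a peak, lay between 1000 bp upstream and 200 bp downstream of any of its 5′ ends. The signal value is the authors' score of a peak, of unstated scale, and can be ranked only within a list. Read depth is unknown from these lists. The labelled tissue could not be checked against marker expression, since no RNA was measured.

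Of the 70 genes, 12 had a promoter peak in the IDR-thresholded list (17.1%), against a background of 7.76% of all protein-coding genes. In order of signal value they were mrps-6, mrps-7, mrpl-9, mrpl-45, mrps-17, mrpl-17, mrpl-12, mrpl-23, mrpl-49, mrpl-18, mrpl-28 and mrpl-19. Each had a single peak, and 11 of the 12 summits lay in intergenic sequence. The intergenic share of all promoter peaks is not given here, so this count has no background beside it. The sequence under 7 of these peaks is shown here, 101 bases centred on each summit and read from the plus strand of ce11 (RefSeq WBcel235). The word GCAAAC or GCAAGC, on either strand, is in 6 of them and absent from that of mrpl-18. The other 5 are not shown. Capitals mark the words GCAAAC or GCAAGC on either strand, plus a longer run that mrpl-45 and mrpl-28 share.
mrps-7 (chrIV:14767874-14767974): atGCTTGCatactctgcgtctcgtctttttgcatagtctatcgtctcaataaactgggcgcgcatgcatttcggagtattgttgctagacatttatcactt
mrpl-45 (chrIII:1202300-1202400): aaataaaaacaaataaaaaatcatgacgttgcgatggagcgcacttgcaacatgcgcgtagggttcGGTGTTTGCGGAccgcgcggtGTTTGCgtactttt
mrps-17 (chrIII:6431866-6431966): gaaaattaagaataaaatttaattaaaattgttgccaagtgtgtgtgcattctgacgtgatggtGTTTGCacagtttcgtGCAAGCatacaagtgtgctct
mrpl-12 (chrIII:10707197-10707297): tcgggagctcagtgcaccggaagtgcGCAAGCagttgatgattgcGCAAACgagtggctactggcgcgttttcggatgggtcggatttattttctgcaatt
mrpl-49 (chrV:12728409-12728509): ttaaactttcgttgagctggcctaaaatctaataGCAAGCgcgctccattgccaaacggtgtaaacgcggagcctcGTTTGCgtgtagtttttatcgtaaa
mrpl-18 (chrIII:8144746-8144846): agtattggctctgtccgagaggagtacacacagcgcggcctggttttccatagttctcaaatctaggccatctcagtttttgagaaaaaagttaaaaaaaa
mrpl-28 (chrII:156046-156146): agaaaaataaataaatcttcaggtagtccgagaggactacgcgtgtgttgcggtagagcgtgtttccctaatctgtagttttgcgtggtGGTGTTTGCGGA

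None of these 7 windows holds the SKN-1 consensus, written out as AATATCAT or AATGTCAT or ATTATCAT or ATTGTCAT or TATATCAT or TATGTCAT or TTTATCAT or TTTGTCAT on either strand. Among all 12 member peaks, 3 held a consensus match with its centre within 50 bp of the summit (25%). They were mrps-6 with AATATCAT, mrpl-9 with TTTGTCAT and mrpl-17 with ATTGTCAT, at 35.5, 42.5 and 37.5 bp from their summits. All 3 are on chromosome I, so the windows shown above leave them out by the choice of chromosomes. The same search found the consensus in 146 of 1171 promoter peaks of all genes (12.5%). It also found it in 5.99% of windows of the same length centred 250 bp upstream of the most upstream 5′ end of each protein-coding gene. In windows 300 bp to either side of the member summits it was present in 1 of 24. The 6-letter core, TATCAT or TGTCAT, is contained in the consensus and added no member peak. Its share was 25% of member peaks, 18.8% of all promoter peaks and 11.9% of promoters. The shorter 5-letter site, GTCAT or ATCAT, was in 6 of 12 member peaks, 39.5% of all promoter peaks and 33.8% of promoters. Within 100 bp of the summit it was in 58.3% of member peaks, 56.8% of all promoter peaks and 55.7% of promoters. Flanks of member peaks held it in 66.7% at that width.

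Among the other words searched, only the GATA-type word changed its count in member peaks with the width of the window. A GATA-type word (AGATAA or CGATAA or TGATAA), which intestinal GATA factors are known to read, was in 2 of 12, those of mrps-7 and mrpl-49, against 19.3% of all promoter peaks and 21.5% of promoters. Within 100 bp of the summit it was in 6 of 12 (50%), against 35.8% and 37.9%. The bZIP palindrome TGANTCA was in 0 of 12, against 2.56% and 3.52%. The words in capitals were picked after the sequences had been read, so their counts describe these windows and carry no test. The AT-rich AATAAA was the most frequent 6-letter word of all (6 of 12), against 13.9% of all promoter peaks. It is also common away from summits, in 25.8% of the flanks of all promoter peaks. GCAAAC or GCAAGC, on either strand, lay within 50 bp of the summit in 7 of 12 member peaks (58.3%), of which 6 are shown above and the other is that of mrpl-19. None of the 24 flanking windows of member peaks held either word, and 6 of the 42 distinct strongest pooled summits of members below the threshold did (14.3%). Over all genes the words were in 230 of 1171 promoter peaks (19.6%), 7.9% of their flanks and 7.49% of promoters. Within 100 bp the member peaks stayed at 7 of 12, while 5 of 24 member flanks (20.8%), 11 of the 42 summits below the threshold (26.2%), 27.8% of all promoter peaks and 14.4% of promoters held a word. Within 50 bp, 3 member peaks held the consensus, 7 held GCAAAC or GCAAGC, and 2, those of mrpl-23 and mrpl-18, held neither. No member peak held both kinds, but the share of all promoter peaks holding both is not given here. The lack of overlap is therefore only a description of these few windows.

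The strongest peak belonged to a small-subunit gene. The mrps-6 peak (chrI:4175037-4175147), at the gene for the counterpart of bacterial S6, had an IDR-thresholded signal value of 88.3, rank 102 of 1778. The summit matched to it, within 100 bp, had a signal value of 16.9 in replicate 1 (rank 377) and 63.3 in replicate 2 (rank 113). The mrps-7 peak (chrIV:14767759-14768088), at the gene for the counterpart of bacterial S7, had 82.2 (rank 120), with 34.01 in replicate 1 (rank 54) and 47.1 in replicate 2 (rank 243). Both replicates thus ranked each of these peaks at 377 or better. The third small-subunit gene, mrps-17 (chrIII:6431751-6432080), encodes a counterpart of bacterial S17. Its signal value was 45.02 (rank 595), with 15.7 in replicate 1 (rank 450) and 30.2 in replicate 2 (rank 762).

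Large-subunit genes made up the other 9, and most ranked lower. The mrpl-9 peak (chrI:10733648-10733977) had a signal value of 73.1 (rank 162), with 20.03 in replicate 1 (rank 239) and 52.6 in replicate 2 (rank 173). The mrpl-45 peak (chrIII:1202293-1202402) had 69.9 (rank 175), with 24.1 in replicate 1 (rank 158) and 43.9 in replicate 2 (rank 305). Its product has no bacterial counterpart and, in mammals, is known to sit at the exit tunnel and hold the ribosome to the inner membrane. The mrpl-17 peak (chrI:3162392-3162721) had 44.5 (rank 613), with 23.4 in replicate 1 (rank 171) and 22.6 in replicate 2 (rank 1424). By rank it stood higher in replicate 1, as did 8 of the 12 peaks in all. The 2 replicate lists differ in length, and the same share over all peaks is not given here. The mrpl-12 peak (chrIII:10707082-10707411), at the gene for the stalk protein that recruits translation factors, had 41.5 (rank 728). The replicates gave it 13.7 (rank 618) and 30.5 (rank 742).

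The remaining 5 peaks ranked between 851 and 1658. The mrpl-23 peak (chrI:6212712-6213041) had 38.3 (rank 851), with 12.2 in replicate 1 (rank 814) and 27.4 in replicate 2 (rank 942). Its product lines the exit tunnel in bacteria. It was the exception in position, since its summit lay at -992 bp from the 5′ end of mrpl-23 (negative is upstream), inside an intron of the neighbouring gene fars-1. The mrpl-49 peak (chrV:12728294-12728623) rested on replicate 2. Its signal value was 35.1 (rank 1042), with 34.5 in replicate 2 (rank 559) and 2.2 in replicate 1 (rank 20686 of 22350), where the nearest summit lay 82 bp away. The mrpl-18 peak (chrIII:8144631-8144960) had 32.6 (rank 1212), with 8.62 (rank 1818) and 24.2 (rank 1221) in replicates 1 and 2. The mrpl-28 peak (chrII:155931-156260) had 29.0 (rank 1535), with 9.36 (rank 1505) and 20.5 (rank 1739). The weakest, at mrpl-19 (chrI:4511093-4511422), had 27.97 (rank 1658), with 9.11 (rank 1604) and 18.8 (rank 2032), just above the lowest signal value of the list, 26.9.

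**Figure D1:**
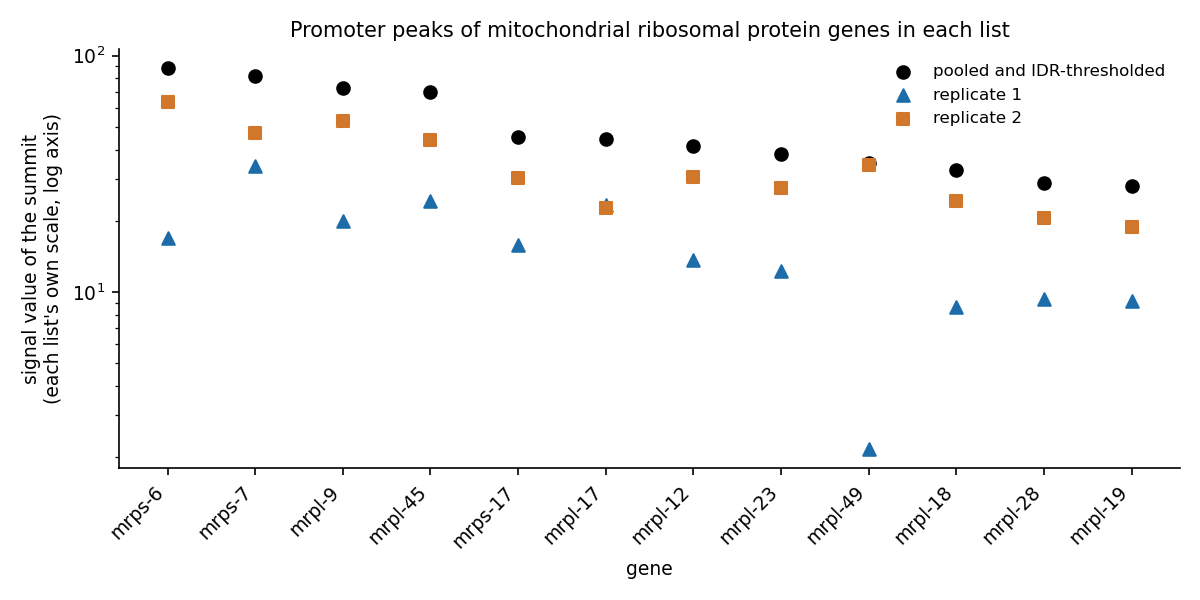
Signal value (log axis, each list's own scale) of the promoter peak of each of the 12 bound genes, in the pooled list (circles, the same values as in the IDR-thresholded list) and at the matched summit of replicate 1 (triangles) and replicate 2 (squares). Every gene has a matched summit in both replicates, and the replicate 1 point of mrpl-49 stands far below the rest at 2.2.

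At any rank, all 12 summits had a match in each replicate list, and 9 of 12 had one among the 1778 strongest lines of each. The same summit counts over all promoter peaks are not given here. A match at any rank asks little, since the replicate lists include background lines. Taken by gene, 13 members (18.6%) had a promoter summit among the 1778 strongest replicate 1 lines, against 6.82% of all genes. In replicate 2 there were 14 (20%), against 7.68%. The 8 found in both replicates were mrps-6, mrps-7, mrps-17, mrpl-9, mrpl-12, mrpl-17, mrpl-28 and mrpl-45, which is 61.5% of the replicate 1 members and 57.1% of the replicate 2 members. For all genes, 853 were found in both, 62.6% of replicate 1 and 55.6% of replicate 2. Among genes with an IDR-thresholded promoter peak, 8 of 12 members (66.7%) and 840 of 1549 of all genes (54.2%) were found in both. The median signal value of the 12 was 43.0, beside 39.2 for the strongest promoter peak of all 1549 bound genes. Over the 37 members with a promoter summit in both lists, Spearman's correlation between the replicates was 0.49, against 0.54 over the 5193 such genes of the genome. In 20 of the 37 both summits lay within 100 bp of each other (54.1%, beside 50.5% of such genes), and over these the correlation was 0.68, against 0.60 over 2624 genes. These correlations are across genes, which share the libraries and are not replicates.

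By subunit, 9 of 41 large-subunit genes were bound (22%) and 3 of 29 small-subunit genes (10.3%), beside 7.76% of all genes. The small-subunit share was thus near the background with this window. With 2000 bp upstream, 5 of 29 small-subunit genes were bound, beside 10.1% of all genes, and the large subunit stayed at 9. The replicate lists taken alone gave 8 and 10 large-subunit genes and 5 and 4 small-subunit genes. The order of the shares was thus kept in each. Replicate 1 had the smaller gap (19.5% against 17.2%, beside 6.82% of all genes). In replicate 2 the shares were 24.4% and 13.8%, beside 7.68%. For a pooled summit at any rank the order turned, with 31 of 41 large-subunit genes (75.6%) and 24 of 29 small-subunit genes (82.8%), beside 45.9% of all genes. Genes numbered after bacterial proteins (mrpl- up to 36, mrps- up to 21) accounted for 10 of the 12, from 41 genes (24.4%). Those numbered beyond them gave 2 of 29 (6.9%), mrpl-45 and mrpl-49, a share near that of all genes (7.76%). No test was made of either difference.

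Many more of these genes had promoter summits below the threshold. In the whole pooled list, 55 of the 70 genes had a promoter summit (78.6%), against 45.9% of all genes. In replicate 1 there were 41 of 70, against 36.4% of all genes, and in replicate 2 there were 53, against 45.5%. The strongest members without an IDR-thresholded peak were mrpl-32 with a pooled signal value of 24.7 (rank 2083), mrpl-44 with 24.2 (rank 2167) and mrpl-15 with 22.7 (rank 2419). The replicates gave mrpl-32 values of 3.46 and 20.4, mrpl-44 5.47 and 20.6, and mrpl-15 6.49 and 9.21. By rank, mrpl-32 and mrpl-44 stood higher in replicate 2 (1754 and 1729) than in replicate 1 (11304 and 4777). Among the 2500 strongest pooled lines the members' share was 21.4%, beside 10.5% of all genes. Lengthening the list to the 3556 strongest pooled lines took in 27 members (38.6%) and 13.6% of all genes. Of these added members, mrpl-1 and mrps-24 hold the same summit in their windows, with a pooled signal value of 20.5 (rank 2860). At the other end, mrps-5 had a pooled signal value of 5.7 at rank 21100 of 30000, and 15 members had no pooled promoter summit at all.

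**Figure D2:**
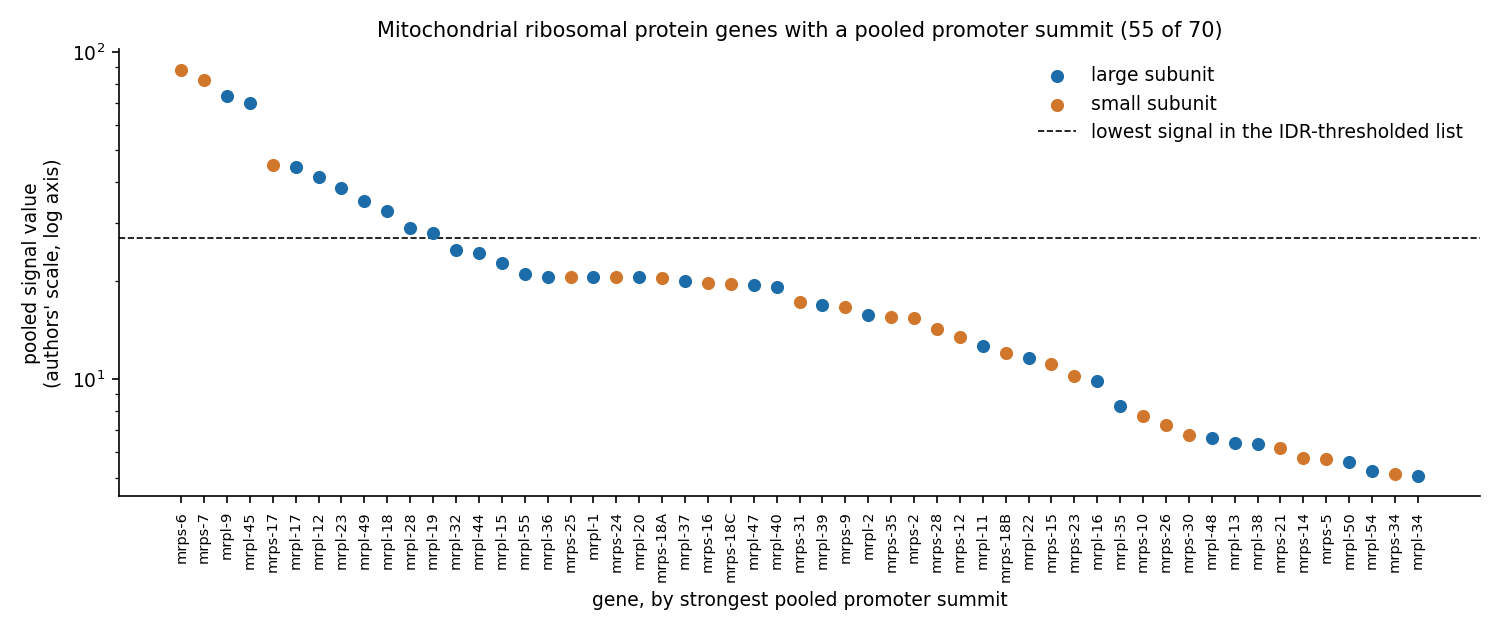
Pooled signal value (log axis) of the strongest promoter summit of each of the 55 members that have one, coloured by ribosomal subunit. The dashed line is the lowest signal value of the IDR-thresholded list, 26.9, with 12 genes above it.

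The window also set which genes were counted at its far edge. The mrpl-23 summit was 8 bp inside the upstream limit. A further 2 IDR-thresholded peaks lay just outside it: that of mrps-21 (chrIV:4660376-4660705, signal value 40.2) at -1024 bp and that of mrps-28 at -1041 bp (signal value 38.5). In replicates 1 and 2 their matched summits had signal values of 9.76 and 34.4 for mrps-21, and 12.8 and 25.6 for mrps-28. Among the 12 counted genes the other 11 summits lay between -87 and -514 bp, and the median over all 12 was -206.5 bp, beside -233 bp for the strongest promoter peak of all bound genes.

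Most of the peaks lay between the 5′ ends of 2 genes that point away from each other. Of the 12 summits, 9 were also in the promoter window of another protein-coding gene (75%), against 396 of 1171 promoter peaks of all genes (33.8%). Counted by gene, 51.9% of all bound genes shared a peak. All 9 had a divergent partner. The mrps-6 summit lay at -248 bp from rpn-8, which encodes a proteasome lid subunit, and at -297 bp from mrps-6. The mrpl-9 peak is shared with kin-3, the gene of the catalytic subunit of casein kinase 2, whose 5′ end is 356 bp away. The mrpl-49 peak is shared with rpl-28, a gene of the cytosolic ribosome, 519 bp away. The mrpl-17 partner is vbh-1, which encodes a DEAD-box RNA helicase, 422 bp away. The mrps-17 partner txdc-9, a thioredoxin-domain gene, is 380 bp away, and the window of popl-1 on the same strand also reaches this summit.

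The partners of the other shared peaks have sequence names only. They were Y57G11C.3 for mrps-7, Y119D3B.12 for mrpl-45, C14B9.8 for mrpl-18, and Y39A1A.21 and Y39A1A.22 for mrpl-12. The member's 5′ end was the nearer one for 4 of the 9 shared summits, those of mrps-7, mrpl-9, mrps-17 and mrpl-49. When each summit was given only to its nearest 5′ end, 7 members (10%) and 5.73% of all genes were bound. A summit between 2 genes does not show which of them it serves. The 3 peaks with no partner were those of mrpl-23, mrpl-28 and mrpl-19.

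**Figure D3:**
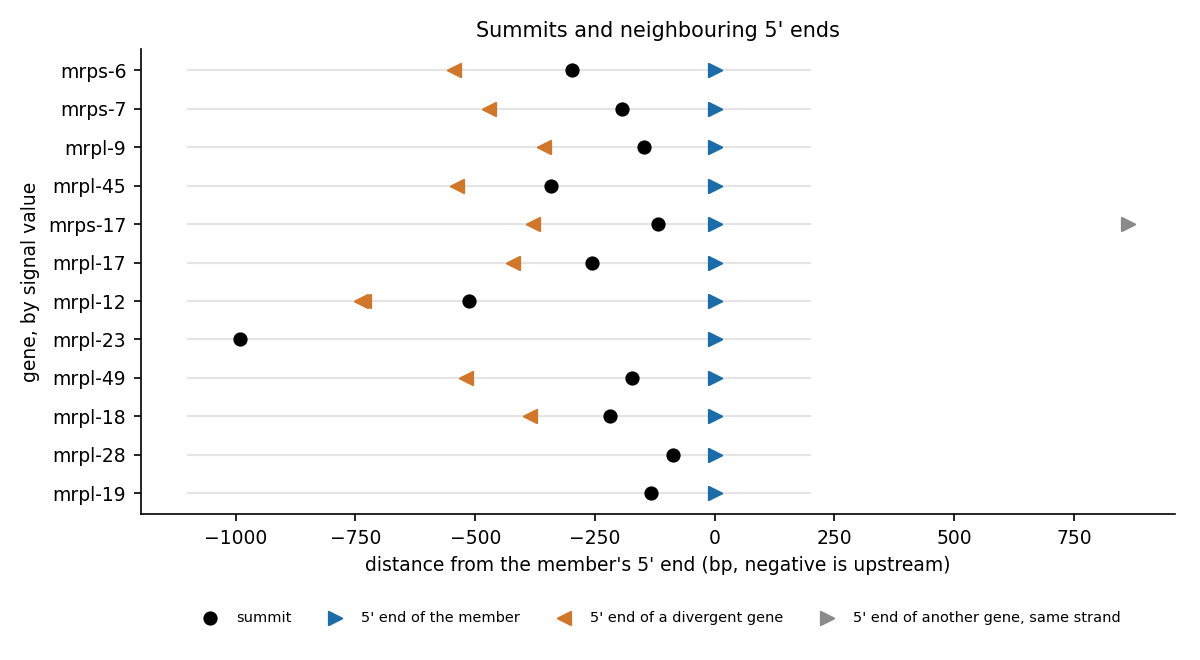
Position of each summit (black) and of the 5′ ends around it, in bp from the 5′ end of the mitochondrial ribosomal protein gene (blue); negative values are upstream. Divergent 5′ ends (orange) lie upstream of 9 of the 12 genes with the summit between the pair, and only the mrpl-23 summit lies far upstream, at -992 bp.

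The arrangement of the 70 genes on the chromosomes differed from that of the genome as a whole. A divergent neighbour with its nearest end under 1000 bp away was found for 25 (35.7%), against 17.2% of all genes. A neighbour on the same strand, ending under 500 bp upstream, was found for 27 (38.6%), against 17.6%, with a median gap of 106 bp. Such close head-to-tail spacing is typical of C. elegans operons, in which genes behind the first are transcribed from its promoter. Spacing alone was used here, with no operon annotation. Of the 25 divergent members 9 were bound (36%), against 19% of the 3435 divergent genes of the genome. Of the 27 close head-to-tail members 2 were bound, mrpl-19 and mrpl-23 (7.41%), against 4.94% of 3525. The remaining 18 held 1 bound gene, mrpl-28 (5.56%, beside 5.55% of the 13013 other genes).

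For the close head-to-tail genes, the first gene of the run was then examined, a step added after the counts had been seen. It had an IDR-thresholded promoter peak for 11 of 27 members (40.7%), against 15.1% of the 3525 genes in this class. The strongest was at rpn-3, a proteasome subunit gene directly upstream of mrpl-32 (chrIII:8447049-8447318, signal value 343, rank 8 of 1778). The gap between these genes was 411 bp, wider than the median of 106 bp for close head-to-tail members. Upstream of mrps-26 the run began with atp-2, the gene of the ATP synthase beta subunit (signal value 40.3), and upstream of mrps-30 with eif-3.E, a translation initiation factor gene (40.4). That of mrpl-23 began with fars-1, which encodes a phenylalanine tRNA synthetase subunit (40.2), and that of mrps-14 with nrde-2, a nuclear RNA interference gene (42.2). That of mrps-21 began with F29B9.11, whose peak is the one just outside the mrps-21 window. The others were clsp-1 upstream of mrpl-54 (76.2), misc-1 of mrpl-41 (46.7), W04B5.5 of mrpl-30 (35.3), W04D2.4 of mrps-11 (35.2) and F21D5.7 of mrps-33 (28.5). The gap from clsp-1 to mrpl-54 was also wide, at 374 bp. Counting a peak at the gene itself or at the first gene of its run, 22 of 70 members (31.4%) and 10.2% of all genes had one. For mrps-5 the run gave no peak.

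**Figure D4:**
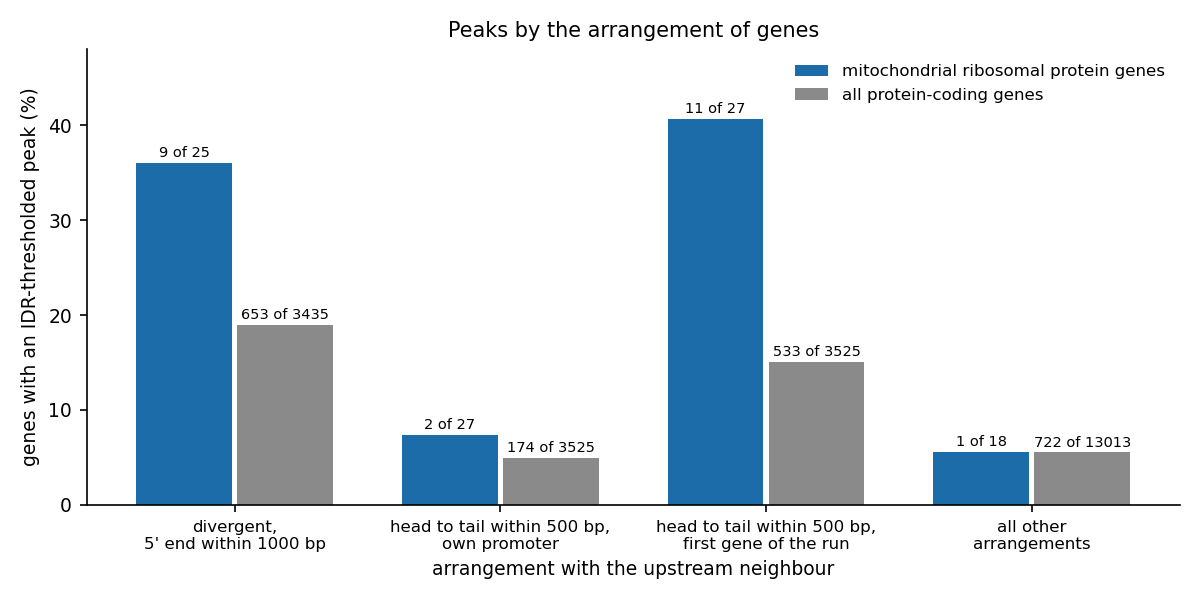
Share of genes with an IDR-thresholded promoter peak (percent) by their arrangement with the upstream neighbour, for mitochondrial ribosomal protein genes (blue) and all protein-coding genes (grey), with counts over the bars. Members stand above the grey bars in the divergent class (36% against 19%) and at the first gene of a head-to-tail run (40.7% against 15.1%). A gene's own peak in the close head-to-tail class was at 7.41% against 4.94%, and the remaining classes merged were at 5.56% against 5.55%.

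The members lay on the 5 autosomes only, with 0 on X. The bound ones were 5 of 15 on chromosome I (33.3%, beside 10.7% of all its genes), 4 of 22 on III (18.2%, beside 11.9%), 1 of 12 on II (8.33%, beside 7.51%), 1 of 11 on IV (9.09%, beside 7.19%) and 1 of 10 on V (10%, beside 4.65%).

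Other groups of genes that serve the same organelle or the same process are given for scale, as counts with no test. Cytosolic ribosomal protein genes (rpl- and rps-) were bound far more often, 58 of 78 (74.4%), with a median signal value of 49.0. Genes of the respiratory chain and ATP synthase, some of whose core subunits the mitochondrial ribosome makes, were bound at 22 of 71 (31.0%), with a median of 43.8. Their strongest peaks were at cox-5A (118), and at 1 site shared by cox-6B and nduc-2 (77.5), all nuclear-encoded subunits. Mitochondrial chaperone, protease and import genes were bound at 12 of 28 (42.9%), led by the chaperonin gene hsp-60 (86.8) and the prohibitin genes phb-2 (48.5) and phb-1 (47.1).

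The other genes of mitochondrial gene expression were bound at 3 of 26 (11.5%). They were ears-2, a mitochondrial glutamyl-tRNA synthetase gene (53.0), mtss-1, which encodes the mitochondrial single-stranded DNA-binding protein (35.1), and tufm-1, the mitochondrial elongation factor Tu gene (30.7). The gene dap-3, known to encode a further small-subunit protein and outside the symbol rule, had no IDR-thresholded peak and a pooled signal value of 4.42. By share bound, mitochondrial ribosomal protein genes thus stood below the cytosolic ribosome, the respiratory chain and the chaperones, and above the background of all genes.

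**Figure D5:**
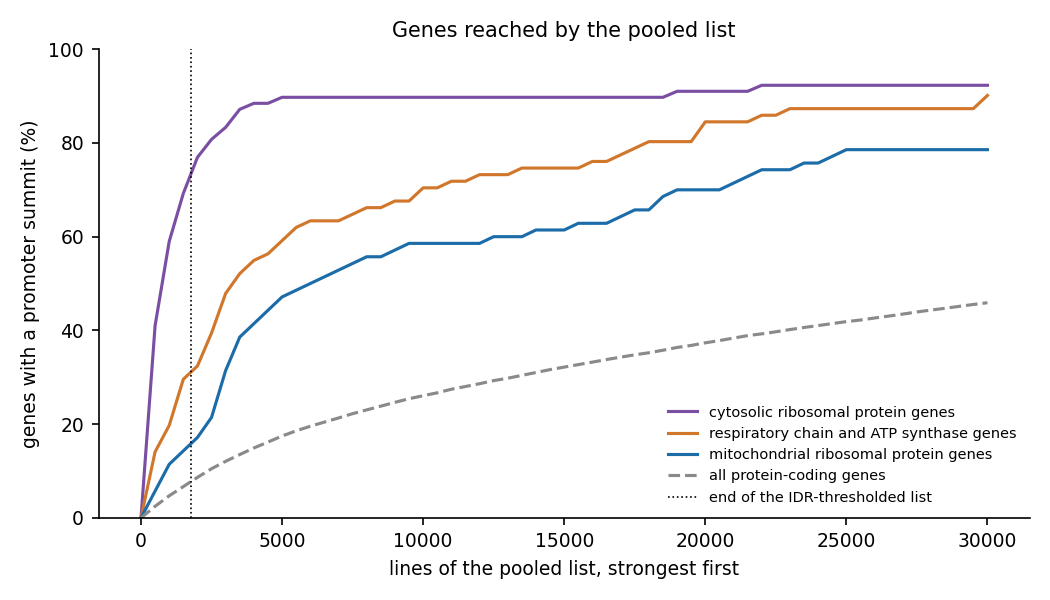
Share of genes (percent) with a promoter summit among the strongest lines of the pooled list, as more lines are taken from left to right, for 3 gene groups and all protein-coding genes. The dotted line is the end of the IDR-thresholded list, where the mitochondrial ribosomal protein genes reach 17.1%, between the respiratory chain genes (31.0%) and all genes (7.76%).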

How the data were processed

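Per the labels, the authors made a narrowPeak list per replicate from its alignment and a control alignment, a pooled list from both replicates and the control, and an IDR-thresholded list from these 3. Not given in the sources used here are the aligner, peak caller and threshold on the IDR. The deposited signal value is the authors' score, of unstated unit. It was used to rank and describe peaks within a list.

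The 4 ce11 lists were used, and the ce10 lists were not, since no coordinate was moved between builds. No peak ended past a WBcel235 chromosome. Genes and 5′ ends came from Ensembl release 115 and sequence from RefSeq WBcel235. Python 3.11.15 and scipy 1.17.1 were used, and the matching code was tested on made-up genes with known answers. The member list, gene groups, motifs and alternatives were chosen with earlier results of these data known. The recurring 6-letter words, the numbering classes and the first gene of a run were added after the values were seen. Genes are named by a rule that takes every bound member, its partners, the 3 strongest unbound members, mrps-5 and the 3 strongest genes of each other group; mrps-21, mrps-28, mrpl-1, mrps-24, dap-3 and the first genes of runs fall outside it and were named after their values were seen. Of the symbols listed for other mitochondrial groups, 10 were not in the annotation. No test of significance was run, since there is 1 group, and shares are set beside those of all protein-coding genes. Neighbouring genes share peaks and are not independent.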

Additional observations from a re-analysis of the deposited data

How the results depend on the processing

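Of 58 alternative values, 48 stayed within 1.5 times the reported count, or within 1 SD for the median signal value. The tally is no measure of robustness. It holds counts of matched peaks that follow the number of member peaks, and medians of single replicates on other scales. Giving each summit only to its nearest 5′ end moved the most: 7 members were bound in place of 12, 5 of the large subunit in place of 9, 7 peaks matched in both replicates in place of 12, 1 held the consensus in place of 3, and 0 were shared, which is so by construction. All genes fell to 5.73% under it. Among only those peaks at or above the list's median signal value, 5 large-subunit genes were bound (8 members, 11.4%, beside 4.25% of all genes). With 2000 bp upstream, and also when a peak had only to overlap the window by 1 bp, 5 small-subunit genes were bound in place of 3, through mrps-21 and mrps-28. With the strongest lines of 1 replicate in place of the thresholded list, between 13 and 14 members were bound, 8 to 10 of the large subunit and 4 to 5 of the small, 9 to 10 peaks were shared and 2 to 2 held the consensus. The median signal value ran from 13.7 without replicate 2 to 28.8 without replicate 1, on each list's own scale. Under every window, list and replicate setting run, the members' share exceeded that of all genes. No paired analysis was possible because there is 1 group. Read depth is unknown, so a gene without a peak is one not detected in these lists, and the number of replicates, 2, gives no spread beyond both values.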

Other observations

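Comparing the 101-base windows of the 12 bound genes pair by pair on both strands (66 pairs), the longest run in common was 12 bases, reached by 2 pairs. One of them is GGTGTTTGCGGA, found on the plus strand at both mrpl-45 and mrpl-28. It was present in 8 of 1171 promoter peaks of all genes (0.683%), in 1 of 2342 of their flanking windows and in 7 of 19973 promoters (0.035%). It was also in the window of 1 of the 42 strongest pooled summits of members without an IDR-thresholded peak. The run was found by searching these windows, so the counts are a description.

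Outside the IDR-thresholded promoter peaks, 7 members had a summit in the promoter window among the 1778 strongest lines of 1 replicate. They were mrpl-2, mrpl-40, mrps-21 and mrps-28 in replicate 1, and mrpl-32, mrpl-44 and mrps-16 in replicate 2. For mrps-21 and mrps-28 the summits matched to the IDR-thresholded peak just beyond the window ranked within 1778 in both replicates (1357 and 562, and 729 and 1099), so the edge of the window set which replicate was counted. For mrpl-2 the values were 9.21 in replicate 1 (rank 1559) and 3.75 in replicate 2 (rank 22052). For mrps-16 replicate 2 gave 20.7 (rank 1696) and replicate 1 had no promoter summit.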
